A study of Mus musculus with 14 samples.

Results

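H3K27me3 was compared between the cerebellum of juvenile mice at postnatal day 14 (P14) and of adult mice at day 60 (P60). The comparison took every library labelled P14 or P60, 3 of each, which is 6 of the 14 libraries in the series. All 6 libraries came from C57BL/6NCrl mice with no deletion and no treatment, so age was the labelled difference between the groups. The study used both sexes, and its methods do not give the sex of each library. A P14 library pooled the cerebella of 2 mice and a P60 library came from 1 mouse, so pool size changed together with age. The study's methods name 1 antibody for this immunoprecipitation, while the catalogue number in the labels rises by 1 from library to library, so whether the antibody differed cannot be told from the labels. The 3 libraries at day 7 (P7), from the same kind of mice, are used as the earlier level and in the estimate of the spread, and the 5 libraries of a Kdm6b knockout experiment were not used. What each library gives is a list of broad peaks, the stretches of the genome where the immunoprecipitated reads stood above background. Depth is unknown, because the sources used here state no read numbers for these libraries.

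H3K27me3, trimethylation of lysine 27 on histone H3, is laid down by Polycomb repressive complex 2 and taken off by demethylases such as Kdm6a and Kdm6b. It covers CpG-rich promoters of genes that a cell holds silent, above all developmental transcription factors and signalling genes of other lineages. In the cerebellum, granule neuron precursors (GNPs) stop dividing in the weeks after birth, and the postmitotic cerebellar granule neurons (CGNs), by far the most numerous cells of this tissue, then migrate inwards, receive synapses and mature. A peak list of whole tissue is a mixture of all its cells, and a mark lost from part of the cells cannot be told apart from a change in which cells are there.

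For each protein-coding gene, promoter coverage is the percent of the 6 kb around its transcription start site (TSS), 3 kb on each side, that lay under peaks, taken at the most covered TSS. It is given raw, in percent of the window, and also relative, as a multiple of the mean promoter coverage of that library. The relative value asks whether a promoter lost more or less than the average promoter of the same list. The annotation holds 21938 protein-coding genes, and 5120 with a peak in the window in at least 2 of the 9 P7, P14 and P60 libraries were tested with limma. A gene is said to fall or rise only if its adjusted p (Benjamini-Hochberg over the 5120) was under 0.05. A p-value here measures the spread between these libraries.

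The promoters that changed most included CpG-rich starts of developmental regulators. The following sequences show 3 of the promoters that lost the mark, 2 that gained relative to the rest of their list, and a stretch that gained a peak away from genes. The promoters are the 250 bases before the RefSeq start, on the strand of the gene, in GRCm38.p6, with each CpG, a dinucleotide that is dense in Polycomb target promoters, in capitals. Pou4f2, a POU homeobox factor of retinal ganglion cells, lies on the minus strand and the stretch is chr8:78436648-78436897. Phox2a, a homeobox factor of noradrenergic neurons, is shown at chr7:101818063-101818312. Sox2, an HMG-box factor of neural stem cells and glia, is shown at chr3:34649745-34649994. Marcksl1, which encodes an actin-binding protein kinase C substrate, is shown at chr4:129513331-129513580, and Kdf1, a regulator of keratinocyte differentiation, at chr4:133518713-133518962, these 4 on the plus strand.

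Pou4f2: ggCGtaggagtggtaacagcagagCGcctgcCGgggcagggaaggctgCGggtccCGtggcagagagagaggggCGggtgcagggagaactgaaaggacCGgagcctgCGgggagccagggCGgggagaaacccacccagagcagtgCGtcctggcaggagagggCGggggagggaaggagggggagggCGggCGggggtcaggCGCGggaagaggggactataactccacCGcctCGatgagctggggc
Phox2a: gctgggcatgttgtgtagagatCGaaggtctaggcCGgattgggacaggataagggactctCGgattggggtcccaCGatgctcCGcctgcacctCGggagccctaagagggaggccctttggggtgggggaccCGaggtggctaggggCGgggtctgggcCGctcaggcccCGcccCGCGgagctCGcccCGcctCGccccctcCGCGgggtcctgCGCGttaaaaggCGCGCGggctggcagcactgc
Sox2: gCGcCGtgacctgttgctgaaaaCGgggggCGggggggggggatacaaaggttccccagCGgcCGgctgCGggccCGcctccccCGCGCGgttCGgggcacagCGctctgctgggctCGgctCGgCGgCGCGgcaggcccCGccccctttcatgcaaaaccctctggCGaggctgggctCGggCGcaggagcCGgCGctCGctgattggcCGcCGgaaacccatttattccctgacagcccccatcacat
Marcksl1: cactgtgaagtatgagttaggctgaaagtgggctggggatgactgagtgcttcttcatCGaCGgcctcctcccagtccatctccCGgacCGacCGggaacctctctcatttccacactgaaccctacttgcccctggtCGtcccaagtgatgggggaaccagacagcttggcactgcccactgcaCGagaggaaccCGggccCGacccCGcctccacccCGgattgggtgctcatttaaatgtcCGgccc
Kdf1: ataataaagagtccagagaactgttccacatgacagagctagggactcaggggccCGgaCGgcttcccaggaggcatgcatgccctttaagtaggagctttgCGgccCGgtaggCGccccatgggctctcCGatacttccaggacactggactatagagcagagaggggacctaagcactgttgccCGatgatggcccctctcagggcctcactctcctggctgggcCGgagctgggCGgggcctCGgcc
Gained region on chromosome 7: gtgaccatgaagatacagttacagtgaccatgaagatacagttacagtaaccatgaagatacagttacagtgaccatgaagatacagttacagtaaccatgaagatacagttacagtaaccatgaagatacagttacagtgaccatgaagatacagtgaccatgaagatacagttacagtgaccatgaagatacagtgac

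The Pou4f2, Phox2a and Sox2 stretches hold 17, 22 and 27 CpG. As many or more were found in 23.6%, 14.6% and 8.16% of the 27025 RefSeq promoters of the same length. Marcksl1 holds 12 CpG and Kdf1 holds 10, which 33.8% and 38.2% of promoters reach. Other promoters went the other way. Ecel1, with the largest raw fall, holds 4 (61.9% of promoters reach this), while Gng5 and Cnn2, which rose on the relative scale, hold 44 and 25 (0.544% and 10.3%). The last sequence, chr7:68587299-68587498, is the centre of an intergenic region and holds 0 CpG, as do 8.26% of promoters.

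The P60 lists covered less of the genome than the P14 lists, but did not all hold fewer peaks. There were 9475, 12572 and 12245 peaks at P14 and 15600, 7227 and 6905 at P60, which overlapped (two-sided exact permutation p = 0.800). Peaks covered 3.62, 7.79 and 9.26 Mb in P14 replicates 1, 2 and 3 and 2.82, 1.48 and 3.61 Mb in P60 replicates 1, 2 and 3. The groups did not overlap, but P60 replicate 3 fell short of P14 replicate 1 by little. The means were 6.89 ± 2.92 and 2.64 ± 1.08 Mb (SD, n = 3 and 3, two-sided exact permutation p = 0.10, the smallest that 3 against 3 can give). Marked protein-coding genes, those with any peak in the window, numbered 2654, 3625 and 3834 at P14 and 1931, 1546 and 2432 at P60, again without overlap (exact permutation p = 0.10). Mean promoter coverage over all genes was 1.26, 2.74 and 3.31% against 0.418, 0.345 and 1.34%. Here the groups overlapped, since P60 replicate 3 lay above P14 replicate 1 (exact permutation p = 0.200).

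P60 replicates 1 and 2 stood apart from the other 4 lists. Their median peak width was 134 and 149 bp, against 410 bp in P60 replicate 3 and 269 to 580 bp at P14. Regions of which over 50% is repeat-masked sequence held 44.3 and 36.0% of their covered length, against 14.4% in P60 replicate 3 and 10.8 to 24.1% at P14. Promoter windows held 18.6 and 28.1% of it, against 47.3% in P60 replicate 3 and 44.8 to 47.2% at P14. P60 replicate 1 also listed 529 peaks on chromosome Y, where the other 5 lists held 30 to 85. The part that list quality or pool size had in the differences reported here was not tested, and each main count is given with its value without single libraries.

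**Figure D1:**
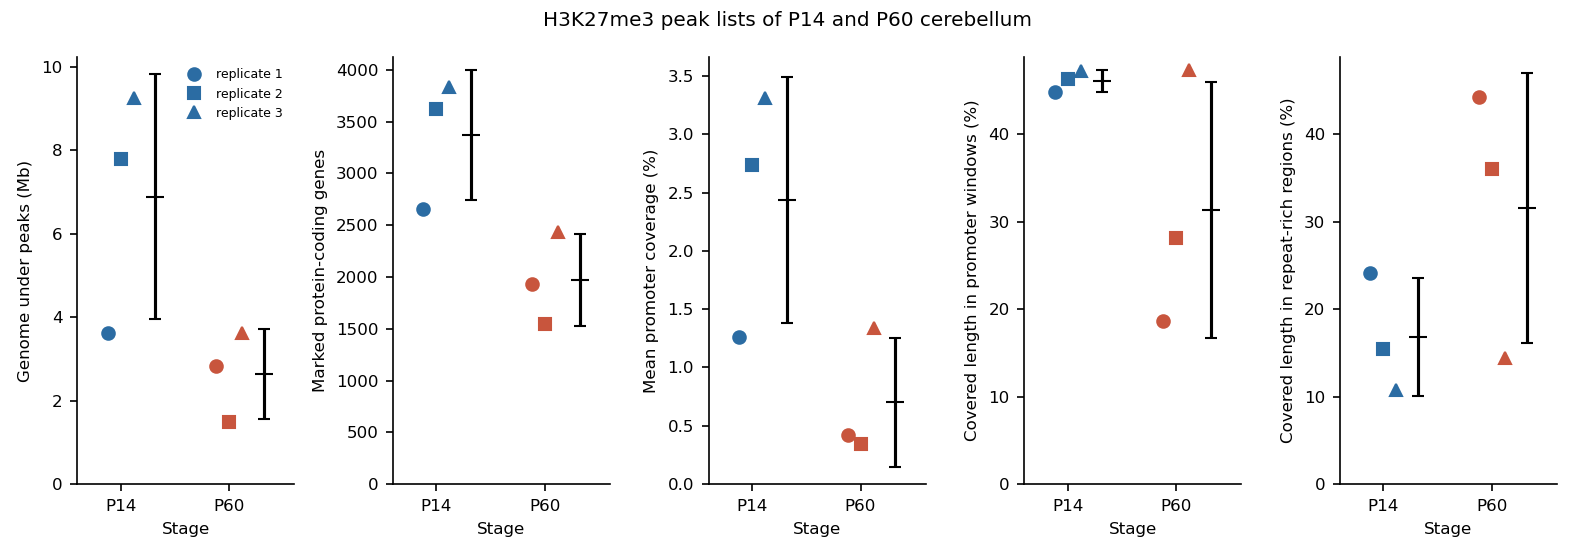
Each panel plots 1 value of the 6 peak lists by stage (points, shape by replicate), with the mean and SD of the 3 libraries beside them (horizontal mark and error bar). Covered length and marked genes do not overlap between P14 and P60, while P60 replicate 3 lies with P14 replicate 1 in mean promoter coverage and with the P14 lists in promoter share, and P60 replicates 1 and 2 have the largest repeat-rich shares.

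On the raw scale, which leaves the shorter P60 lists as they are, most tested promoters had less coverage at P60 than at P14. In P14 replicate 1 and P60 replicate 3, of nearly equal covered length, 1632 tested genes had less coverage at P60 and 1640 more. The part that list length had in the raw change was not tested. Promoter coverage fell at 106 genes, 2.07% of the 5120 tested, in 103 separate windows, and rose at 0 genes (0%). At an unadjusted p under 0.05 there were 1266 lower and 40 higher genes. The values of the 2 stages did not overlap at 1314 genes with lower coverage at P60 (25.7%) and at 43 with higher coverage (0.840%), and the median change over all genes tested was -4.86 percentage points. The 106 genes had a median coverage of 38.3% at P7, 31.0% at P14 and 0.858% at P60, and 43 of them were at 0 in every P60 list. These calls lean on the P7 libraries for the estimate of the spread. With the 6 P14 and P60 libraries alone 0 genes passed (1335 at an unadjusted p under 0.05, smallest adjusted p 0.0553), and 0 passed without P14 replicate 2, P14 replicate 3, P60 replicate 1 or P60 replicate 2, while 1099 fell without P14 replicate 1 and 178 without P60 replicate 3.

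Among the genes that fell on the raw scale were transcription factors of other neurons. Bcl11b, a zinc finger factor of deep-layer cortical and striatal neurons, had 21.4, 50.6 and 57.5% at P14 and 1.48, 0 and 4.65% at P60 (SE of the difference 8.93 points, adjusted p = 0.0459). P14 replicate 1 was the low library for Bcl11b, as it was for most of these genes, and even so it stood above every P60 value. Pou4f2, with the 17 CpG shown above, had 19.7, 53.8 and 55.4% at P14 and 0 in all P60 lists (adjusted p = 0.0463). Phox2a had 29.9, 47.4 and 42.8% at P14 and 2.40, 0 and 0% at P60 (adjusted p = 0.0379).

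Outside the nervous system, Mafa, an activator of the insulin gene in beta cells, went from 31.9, 39.5 and 41.7% to 0 in all P60 lists (adjusted p = 0.0329), and Fli1, an ETS factor of blood and endothelium, from 17, 49.6 and 49.3% to 0 (adjusted p = 0.0463). In both genes the groups were far apart. Hmx3, a homeobox factor of the inner ear, had 27, 45.6 and 45.2% at P14, and Tox2, an HMG-box factor, 18.6, 52.2 and 52.4%. Both were at 0 in all P60 lists, which is below any peak the caller listed and not a measured absence of the mark.

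Signalling and cell-cycle genes were also among them. Notch1, the receptor that keeps neural progenitors and glia from differentiating, had 36.4, 42.8 and 45% at P14 and 0, 0 and 3.80% at P60, a fall of 40.1 points (SE 5.69, adjusted p = 0.0329). Ecel1, a neuronal membrane metalloprotease-like protein, had the largest fall, 43.2 points (SE 7.22, adjusted p = 0.0329), from 38.1, 51.2 and 50.5% to 0, 0 and 10.2%. Adrb1, the beta-1 adrenergic receptor, had 25.0, 41.2 and 40.6% at P14 and 0 in every P60 list (adjusted p = 0.0379). Cdkn1c, the cell-cycle inhibitor p57, had 25.9, 25.6 and 30.7% at P14 and 0.850, 0 and 0% at P60 (adjusted p = 0.0329). Cdkn2a, which encodes the inhibitors p16 and p19Arf, had 16.3, 32.1 and 26.8% at P14 and kept 2.80, 2.18 and 3.87% at P60 (adjusted p = 0.0463). Sox2 had 20.8, 44.1 and 44.2% at P14 and 0 at P60 (adjusted p = 0.0381). Most of these genes had as much coverage at P7, where Ecel1 held 67.4, 54.6 and 57.4% and Notch1 held 46.6, 40.6 and 35.8%.

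**Figure D2:**
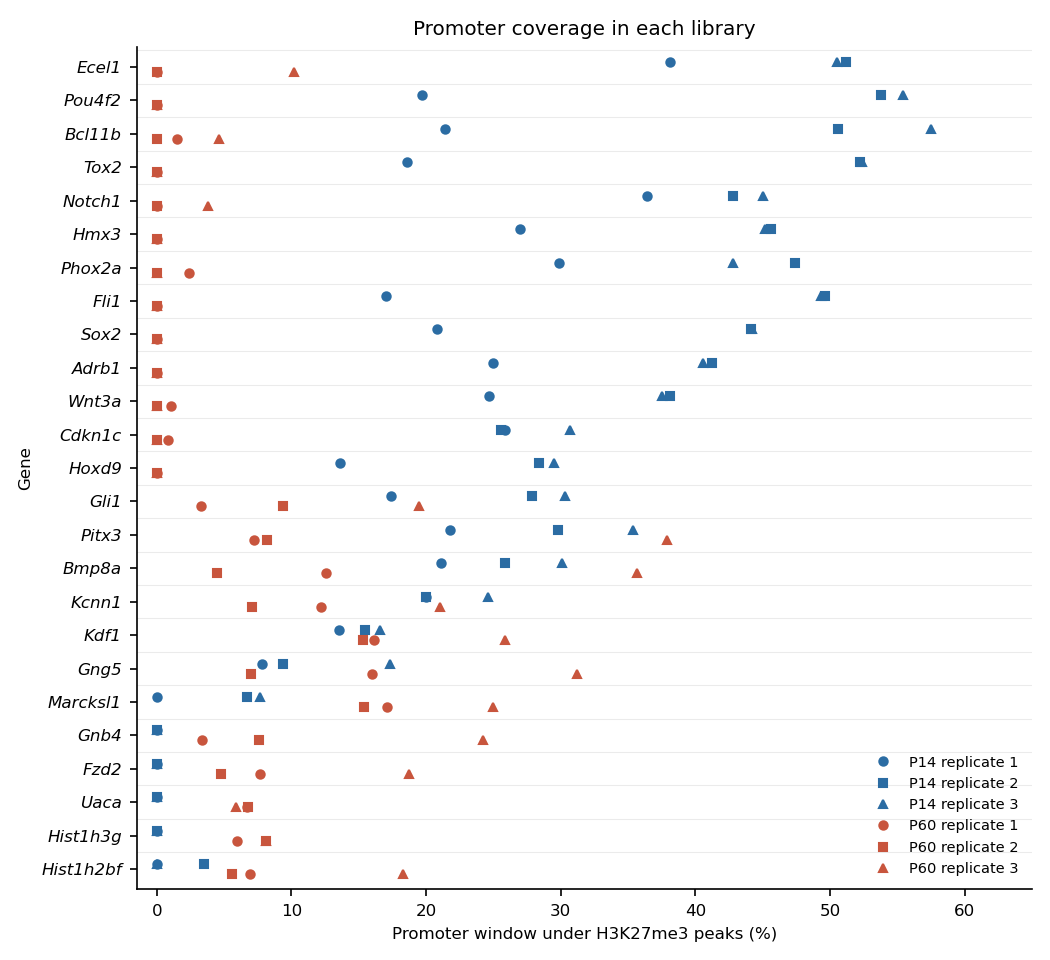
Raw promoter coverage in percent of the TSS window (x axis) for 25 genes (rows) in each of the 3 P14 libraries (blue) and 3 P60 libraries (red), with the shape showing the replicate. From Ecel1 to Hoxd9 all P14 values lie above all P60 values, from Gli1 to Kcnn1 every library has a peak, and from Marcksl1 to Hist1h2bf all P60 values lie above all P14 values.

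Dividing each value by the library mean sets a promoter against the average promoter of its own list. The mean promoter coverage of the P60 lists was lower by a factor of 3.48, and the division sets the mean relative change over all genes to 0 by construction. Over the genes tested, the median relative value was 2.78 library means at P14 and 1.41 at P60, and the median relative change was -0.348. Relative coverage fell at 432 genes (8.44%) in 413 windows and rose at 94 genes (1.84%) in 73 windows. The stages did not overlap at 827 genes lower at P60 (16.2%) and at 294 genes higher (5.74%). The 432 had a median of 8.99 library means at P14 and 0 at P60, and 319 of them were at 0 in all P60 lists. A value of 0 stays 0 whatever it is divided by, so these are promoters whose peaks were gone from all 3 P60 lists. Of the 106 genes that fell on the raw scale, 81 fell here too, among them Pou4f2, Notch1 and Sox2.

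The relative calls rest on the choice of lists as well. Leaving out 1 library left between 180 genes lower (without P60 replicate 2) and 653 lower (without P60 replicate 3), and between 25 higher (without P14 replicate 2) and 371 higher (without P60 replicate 3). Without P14 replicate 3 there were 259 lower and 32 higher, without P60 replicate 1 there were 186 and 116, and without P14 replicate 1 there were 632 and 58. With the 6 P14 and P60 libraries alone 0 passed in either direction (999 at an unadjusted p under 0.05, smallest adjusted p 0.0857), as with peaks of -log10 q of 4 or more only (189 of the 1618 genes then tested, smallest adjusted p 0.368). On the raw scale that stricter threshold also left 0 genes (224 at an unadjusted p under 0.05, smallest adjusted p 0.101).

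P14 replicate 1 and P60 replicate 3 cover nearly the same length, 3.62 and 3.61 Mb, and allow a view without any division. This pair was chosen after its values were seen and carries no test. Of the 5120 genes, 1632 had less coverage in the P60 list, 1640 had more and 1848 were equal, most of them at 0 in both. A difference of 10 points or more was found at 385 genes with less coverage and at 482 with more. In this pair the median difference over all genes tested was 0, and the balance differed between gene lists, whose counts in the pair are given below beside their other values.

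**Figure D3:**
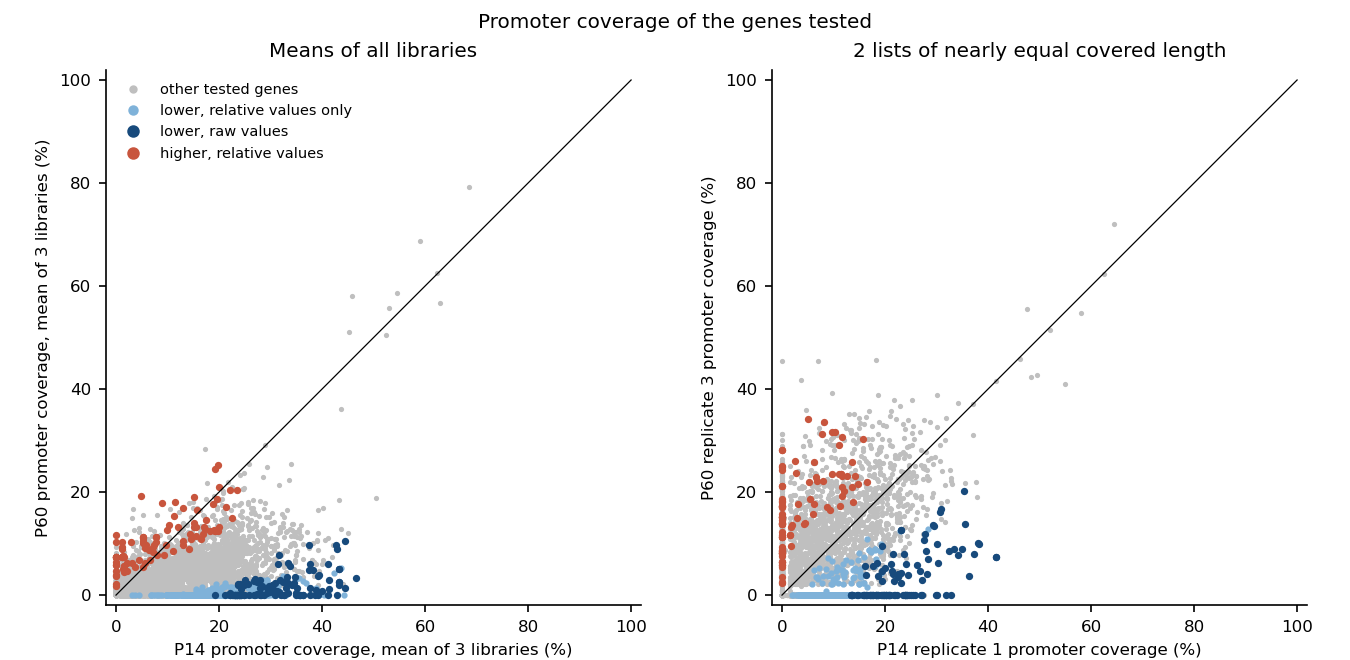
Promoter coverage in percent of the TSS window for the 5120 tested genes, P60 (y axis) against P14 (x axis), as means of 3 libraries (left) and in the 2 lists that cover 3.62 and 3.61 Mb (right), with the line of equal values. Genes lower on the raw scale (dark blue) or on the relative scale only (light blue) lie along the x axis near 0 at P60, and the 94 genes higher on the relative scale (red) lie near or above the line at low to moderate coverage.

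Hox genes, the homeobox genes that pattern the body axis and that are silent anterior to the hindbrain, had few promoter peaks left at P60. All 39 passed the filter, and 34, 37 and 38 of them were marked in the P14 libraries against 0, 1 and 5 at P60. Their mean coverage was 7.75, 19.9 and 24.7% in the P14 libraries and 0, 0.0765 and 0.823% at P60, and 0 of the 39 had a peak in all 6 lists. Relative to the library mean they held 6.16, 7.25 and 7.45 library means at P14, so their standing was alike in all P14 lists including the weak replicate 1, and 0, 0.222 and 0.614 at P60. Relative coverage fell at 22 of 39, against 8.44% of all genes tested, and rose at 0, and raw coverage fell at 3, Hoxa4, Hoxd1 and Hoxd9. Raw values did not overlap between the stages at 32 of 39, against 25.7% of all genes. Their median relative change of -7.18 compares with -0.348 over all genes.

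Members of all 4 clusters fell on the relative scale. Hoxa4 went from 19.2, 21.9 and 31.9% to 0 (raw adjusted p = 0.0381) and Hoxd9 from 13.6, 28.4 and 29.5% to 0 (adjusted p = 0.0459). Hoxb3, with 7.48, 25.5 and 42.0% at P14 and 0 at P60, passed on the relative scale, as did Hoxc8, with 7.28, 20.3 and 20.4% at P14 and 0 at P60 (adjusted p = 0.0180, raw 0.0689). Hoxc13 was among the few with a remnant, 11.4% in P60 replicate 3 alone, after 21.7, 25.1 and 36.7% at P14, and did not pass on either scale. Leaving out single libraries, between 8 and 24 Hox genes fell on the relative scale, and the median change stayed negative under every alternative run on both scales. In the pair of equal covered length 33 of the 39 had less coverage in P60 replicate 3 and 2 had more.

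Other homeobox genes followed the same course with more exceptions. Of 120 tested members outside the Hox clusters, 44 fell on the relative scale (36.7%, against 8.44% of all genes tested), 0 rose, and 8 fell on the raw scale (6.67%, against 2.07%). The raw values of 85 were lower without overlap, where 25.7% of all genes were, and the median relative change was -5.73. The mean over the list was 7.73, 21.1 and 23.0% at P14 and 0.745, 0.519 and 2.93% at P60. Alx1, a factor of craniofacial mesenchyme, had 16.0, 43.3 and 38.4% at P14 and 0 at P60. Emx1, a factor of the dorsal telencephalon, had 15.9, 65.4 and 39.7% at P14 and 0 at P60, with a wide spread at P14, and passed on the relative scale only (adjusted p = 0.0282, raw 0.0549). A peak stayed in all 6 lists at 9 of the members. One was Pitx3, a factor of midbrain dopamine neurons and lens, with 21.8, 29.8 and 35.4% at P14 and 7.22, 8.22 and 37.9% at P60, where P60 replicate 3 was the highest of all.

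Forkhead factors, forebrain identity factors and factors of other organs showed the same direction. Of 29 tested forkhead genes 13 fell on the relative scale (44.8%, against 8.44% of all genes) and 0 rose. Foxd3, a neural crest factor, had 20.4, 33.5 and 38.0% at P14 and 0 at P60 (relative adjusted p = 0.0177, raw 0.0502). Of 24 forebrain factors, which overlap with the homeobox list, 11 fell (45.8%) and 0 rose, with a median raw coverage of 22.9% at P14 and 0.394% at P60. Of 60 factors of other organs 19 fell (31.7%), among them Sox17 of endoderm and endothelium, Twist1 of mesoderm and Sall1 of kidney and microglia, each at 0 in all P60 lists. In the same list 1 rose on the relative scale, Myod1, the master factor of skeletal muscle. Its raw values of 14.1, 25.0 and 28.5% at P14 and 10.9, 10.8 and 23.2% at P60 overlapped, with a mean 7.55 points lower at P60.

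Genes of secreted signals split. Of 71 tested Wnt, FGF, BMP and Hedgehog ligands and antagonists 10 fell on the relative scale (14.1%, against 8.44% of all genes), 0 rose, and 17 kept a peak in all 6 lists. Wnt3a went from 24.7, 38.1 and 37.5% to 1.05, 0 and 0% (raw adjusted p = 0.0459). Ihh, Indian hedgehog, went from 37.2, 40.6 and 39.9% to 2.98, 0 and 8.07% (raw adjusted p = 0.0329) and did not pass on the relative scale (0.0716). Bmp8a kept peaks, with 21.1, 25.9 and 30.1% at P14 and 12.6, 4.50 and 35.7% at P60, and so did Nog, an inhibitor of BMP signals, with 22.3, 34.0 and 44.6% at P14 and 9.88, 2.97 and 15.6% at P60. Among the 680 genes with a peak in all 6 lists, 29.4% of those with a peak in every P14 list, median coverage was 19.9% at P14 and 8.98% at P60.

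The lists of neuronal receptors and channels lay on both sides of the 8.44% of all genes that fell on the relative scale. Of 52 tested potassium channel genes 3 fell (5.77%), with a median relative change of -0.408, near that of all genes, and in the pair of equal covered length 13 had less and 27 more coverage in P60 replicate 3. Kcnn1, a calcium-activated channel, kept 12.2, 7.10 and 21.0% at P60 after 20, 20 and 24.6% at P14. Of 36 tested monoamine and acetylcholine receptors 7 fell (19.4%), among them Hrh3, a histamine receptor, from 17.6, 26.8 and 26.1% to 0 (raw adjusted p = 0.0459). Of 18 glutamate receptors 3 fell (16.7%), Grm2, Grm6 and Grm7, and Grin3a rose on the relative scale. GABA and glycine receptors (9 tested) and sodium, calcium and HCN channels (12 tested) gave 0 calls on either scale, where most members were at 0 in all 6 lists. Of 25 neuropeptide genes 1 fell (4%), Adcyap1. Of 42 axon guidance genes 4 fell, Robo3, Sema3f, Slit1 and Plxna4, and this share of 9.52% is near that of all genes.

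Genes of mature CGNs had less coverage at P14 than at P7, and at P14 they were near the average of all genes. Of 30 mature granule neuron genes 19 had no peak in any of the 6 P14 and P60 lists, as had 16816 of all 21938 genes. The 19 members that passed the filter, which also reads the P7 lists, include some of these unmarked genes. Of the members that passed, 0 were called on either scale, but a gene at 0 in all 6 lists could not be called. With the 6 P14 and P60 libraries alone 8 members passed the filter. The 0 calls are therefore no test of a lack of change over the list. Mean coverage over the 30 was 20.3, 13.8 and 12.3% at P7, 0.851, 3.97 and 4.31% at P14 and 0.50, 0 and 0.608% at P60. Over all protein-coding genes it was 5.70, 3.50 and 3.13% at P7, 1.26, 2.74 and 3.31% at P14 and 0.418, 0.345 and 1.34% at P60. Grin2c, an NMDA receptor subunit of mature CGNs, had 34.3, 29.7 and 28.3% at P7, 0, 20 and 21.2% at P14 and 0 at P60, and the P14 and P60 values overlapped at 0. Grm4, a presynaptic glutamate receptor, had 0, 10.4 and 0% at P14 and 0 at P60. Gabra6, Olfm3 and Tubb5 were at 0 in all 9 lists.

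Among the genes of GNPs and the Hedgehog pathway 24 of 36 were tested and 4 fell on the relative scale (16.7%, against 8.44% of all genes), Ccnd2, Sox2, Hes1 and Id3. Ccnd2, cyclin D2, had 18.3, 39.4 and 32.1% at P14 and 0, 1.55 and 0% at P60 (raw adjusted p = 0.0381). Atoh1, the factor that defines GNPs, had 11.3, 27.2 and 35.4% at P14 and 2.43, 3.65 and 0% at P60. The raw values of the stages did not overlap and the relative ones did, and Atoh1 did not pass (raw adjusted p = 0.0639, relative 0.308). Mycn, the Hedgehog target that drives GNP division, was at 0 in all P7 lists, had 4.63, 26.5 and 18.4% at P14 and 3.38, 1.02 and 35.9% at P60, so that its highest value was in P60 replicate 3 and its lowest in P60 replicate 2. Mycn passed on neither scale, but with peaks of -log10 q of 2 or more only its relative difference turned negative and passed (limma adjusted p = 0.0433). Gli1 kept a peak in all 6 lists, with 17.4, 27.9 and 30.3% at P14 and 3.32, 9.40 and 19.5% at P60.

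Most markers of the other cells of the cerebellum did not pass. Of 10 tested oligodendrocyte lineage markers 4 fell on the relative scale, Pdgfra, Nkx2-2, Olig2 and Myrf, and of 17 inhibitory interneuron markers 4 fell, Slc6a5, Gad2, Lhx9 and Grm2. Pdgfra, the receptor of oligodendrocyte precursors, had 12.1, 48.0 and 56.3% at P14 and 0, 0 and 4.18% at P60, and Gad2, a GABA-synthesising enzyme, had 19.4, 19.4 and 20.4% and then 0. Of the other markers, 1 of 9 tested for astrocytes (Gdf10), 1 of 3 for microglia (Sall1), 1 of 10 for endothelial and mural cells (Sox17), 2 of 9 for unipolar brush cells (Lmx1a and Otx2) and 0 of 7 for Purkinje cells fell. The astrocyte and endothelial shares, 11.1 and 10.0%, are near the 8.44% of all genes, and lists this short give coarse shares. Coverage at these genes is that of the whole tissue, and the share of each cell type in it was not tested. Of the remaining lists, 4 of 14 immediate early genes (Klf4, Nr4a2, Egr4 and Nr4a3), 3 of 27 collagen genes, 1 of 13 clustered protocadherins, 1 of 8 cerebellar identity factors (Meis2) and 1 of 10 Polycomb genes (Cbx7) fell. The share of the immediate early genes was 28.6%, and those of the last 4 lists, 7.69 to 12.5%, are near that of all genes. Ribosomal protein genes and olfactory receptor genes, with 15 of 76 and 25 of 1091 tested, gave 0 calls.

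**Figure D4:**
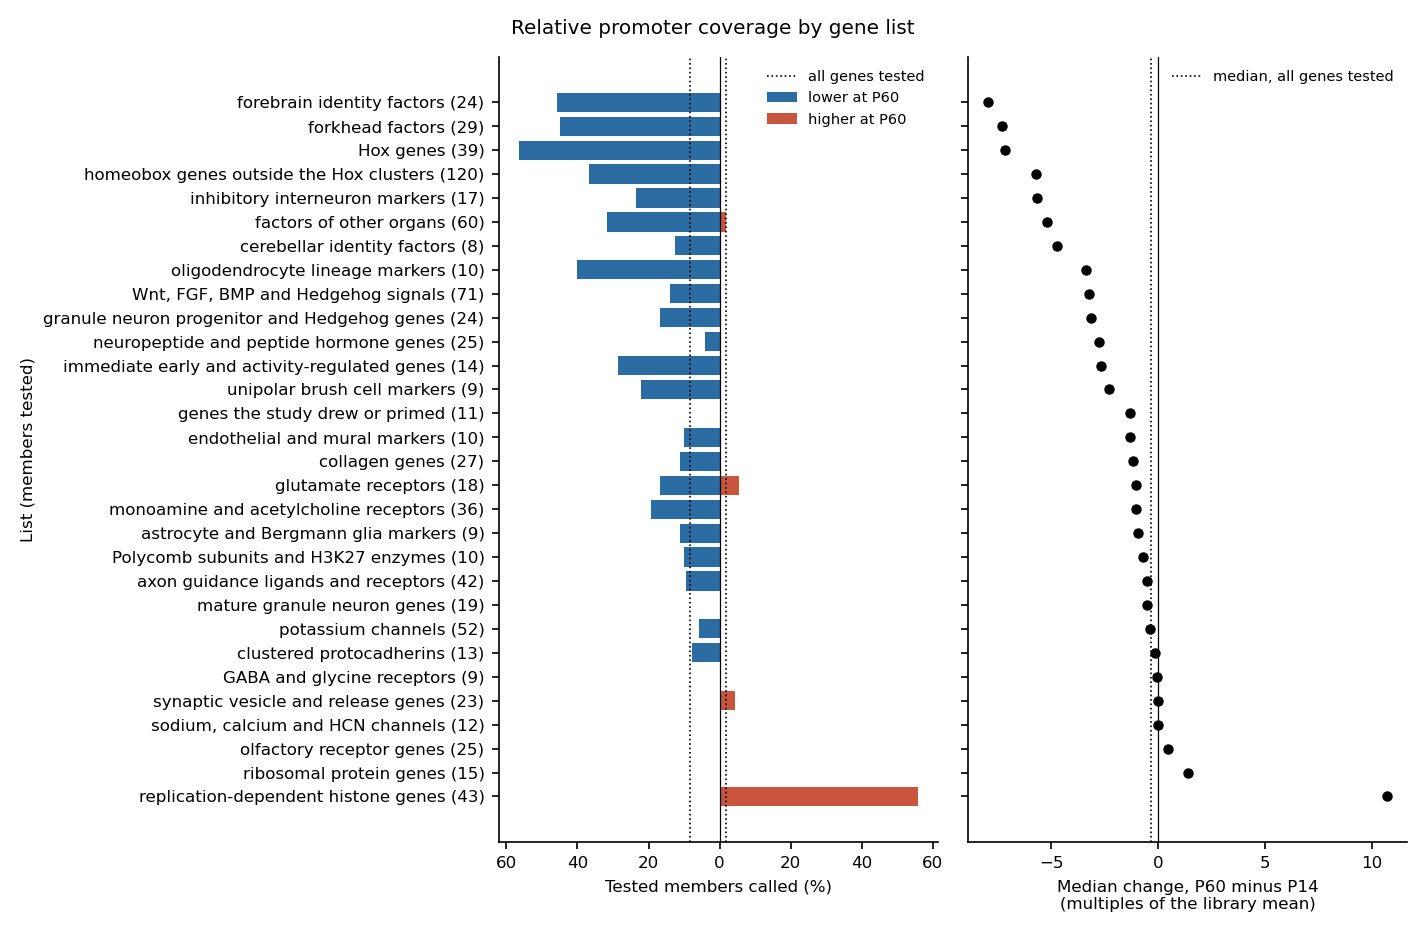
Left, percent of the tested members of each gene list whose relative promoter coverage was lower (blue) or higher (red) at P60, with dotted lines at 8.44 and 1.84% for all 5120 genes tested. Right, the median relative change of each list in multiples of the library mean, with a dotted line at -0.348 for all genes; Hox genes, forkhead factors and forebrain factors lie between -7.18 and -7.96 and replication-dependent histone genes at 10.7.

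The replication-dependent histone genes moved the other way. They encode the core and linker histones made in S phase and most stand in a large cluster on chromosome 13. Their promoters had 0% mean coverage in all 3 P7 lists, 0, 1.13 and 1.13% at P14 and 3.19, 3.01 and 5.32% at P60, so every P60 value lay above every P14 value. In library means this was 0, 0.413 and 0.342 at P14 and 7.63, 8.74 and 3.97 at P60. Of 43 tested members 24 rose on the relative scale, against 1.84% of all genes, and 0 fell. All 24 are on chromosome 13, as are 41 of the 43 tested. Raw coverage was higher without overlap at 27 of the 43, against 0.840% of all genes, and passed at 0. The P60 lists had between 39 and 41 of the 67 members marked, and the P14 lists 0, 16 and 6. Members thus passed the filter mainly through their P60 peaks, and few of them could have fallen. This filter raises the share of members that rose, so it is not like for like with that of all genes.

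Single histone windows had low coverage at P60. Hist1h3g was at 0 in all P7 and P14 lists and had 5.95, 8.08 and 8.13% at P60, a rise of 7.39 points (SE 1.93, raw adjusted p = 0.0578) that passed on the relative scale (adjusted p = 0.0339). Hist1h2bf had 0, 3.48 and 0% at P14 and 6.95, 5.58 and 18.3% at P60 (relative adjusted p = 0.0124). Hist1h2ag had 0 at P14 and 6.38, 2.30 and 13.8% at P60. Neighbouring histone genes share windows, as Hist1h2ag, Hist1h2bj and Hist1h4i do, and their coding sequences are near copies of each other, so the counts are not of separate sites and reads may have been placed on the wrong member. P60 replicates 1 and 2, the thin lists, had more relative coverage at these genes than replicate 3. The count of members higher was 12 to 35 when single libraries were left out. The median change stayed positive under every alternative run on both scales, which a filter passed mainly through P60 peaks favours. In the pair of equal covered length 41 had more coverage in P60 replicate 3. None could have less, because every member was at 0 in P14 replicate 1.

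Beside histones, the 94 genes that rose on the relative scale held 14 predicted or RIKEN genes and 56 others. Raw mean coverage was higher at P60 for 64 of the 94 and lower for 30, where a promoter only lost less than the average, and raw values were higher without overlap for 24. Marcksl1 was higher without overlap on the raw scale, from 0, 6.68 and 7.65% at P14 to 17.1, 15.4 and 25.0% at P60 (relative adjusted p = 0.0164, raw 0.0689), and was at 0 in all P7 lists. Gnb4, a G protein beta subunit, was at 0 in all P7 and P14 lists and had 3.33, 7.57 and 24.2% at P60 (relative adjusted p = 0.0179, raw 0.144). Fzd2, a Wnt receptor, had 14.9, 0 and 0% at P7, 0 at P14 and 7.67, 4.77 and 18.7% at P60 (relative adjusted p = 0.0164, raw 0.209). Uaca, a regulator of cell death, had 3.53, 2.13 and 0% at P7, 0 at P14 and 6.68, 6.78 and 5.88% at P60 (relative adjusted p = 0.0345, raw 0.105). Its gain from P14 was small and alike in the 3 P60 libraries.

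Some relative gains went with overlapping raw coverage. Kdf1 had 13.5, 15.5 and 16.6% at P14 and 16.1, 15.3 and 25.9% at P60, which overlapped, and rose by 27 library means (SE 6.2, adjusted p = 0.0291). With peaks of -log10 q of 4 or more only, the sign turned for Kdf1 and for Cnn2, an actin-binding calponin. Cnn2 had 11.6, 23.8 and 31.3% at P14 and 13.8, 16.9 and 30.6% at P60 (relative adjusted p = 0.0424). Gm13272, Gm13283, Gm13290 and Speer4e are members of multicopy families, so their values are uncertain. In all, 30 genes had a peak in every P60 list and in no P14 list, 19 of them histones, against 553 with a peak in every P14 list and in no P60 list.

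Merging the peaks of the 9 P7, P14 and P60 lists gave 39220 regions, which also shows the change away from promoters. A region is lost if all P14 libraries and no P60 library has a peak in it, gained if all P60 and no P14 library has one, and kept if it holds a peak in all 6. There were 1258 lost (3.21%), 98 gained (0.250%) and 1650 kept regions (4.21%). The excess of losses differed with how the lists were cut. With each list reduced to its best peaks up to the same covered length, 149 were lost and 230 gained, so the direction turned. This cut also raised the strength that a peak needed in the longer lists, and list length alone was not tested. With equal numbers of best peaks 637 were lost and 97 gained. Without single libraries, between 1367 and 2805 were lost and between 137 and 817 gained, with the highest lost count without P14 replicate 1 and the highest gained count without P60 replicate 3. Gained counts were also over 1.5 times higher without P14 replicate 2 (156), P60 replicate 1 (193) or P60 replicate 2 (242), and 1904 were lost without P60 replicate 3.

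Lost and gained regions differed in class, CpG density, width and repeat content. A gained region needs a peak in every P60 list, including the thin P60 lists, whose median peak widths were 134 and 149 bp. Of their covered length 44.3 and 36.0% lay in repeat-rich regions, so the definition itself favours short, repeat-rich gained regions. Region width also counts the P7 peaks merged into it. The part that these definitions had in the differences was not tested. Promoter windows held 666 of the lost regions (52.9%), 629 of the kept (38.1%) and 23 of the gained (23.5%), against 22.0% of all regions. Lost regions had a median of 36.5 CpG per kb and kept regions 22.1, against 13.6 in all regions and 8.26 in the genome, while gained regions had 5.56. Among promoter regions alone the order was another one, with 75 CpG per kb in the 23 gained, 50.3 in the lost and 44.2 in the kept. Of these 23, 12 were nearest to replication-dependent histone genes, so the median of 75 describes that cluster to a large part. Median width was 1588 bp for lost, 1334 bp for kept and 305 bp for gained regions. Over 50% repeat-masked sequence was found in 13% of lost, 32.5% of kept and 41.8% of gained regions, against 34.3% of all.

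Lost regions were weaker than kept ones while they were there. By the rank of their best peak within its own P14 list (percentile of -log10 q), their medians were 36.7, 59.7 and 67.2 in P14 replicates 1, 2 and 3, against 76.9, 88.0 and 89.1 for kept regions. Of the lost regions 64.1% had a peak in all 3 P7 libraries and 16.2% in none, and of the kept 88.2% and 1.33%. Of the gained regions 10.2% had a peak in all P7 libraries and 48.0% in none, near the 15.2% and 49.7% of all regions. Kept promoter regions had a median of 811, 1241 and 1390 bp under peaks at P14 and 308, 275 and 956 bp at P60. The stages overlapped, since P60 replicate 3 lay above P14 replicate 1.

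**Figure D5:**
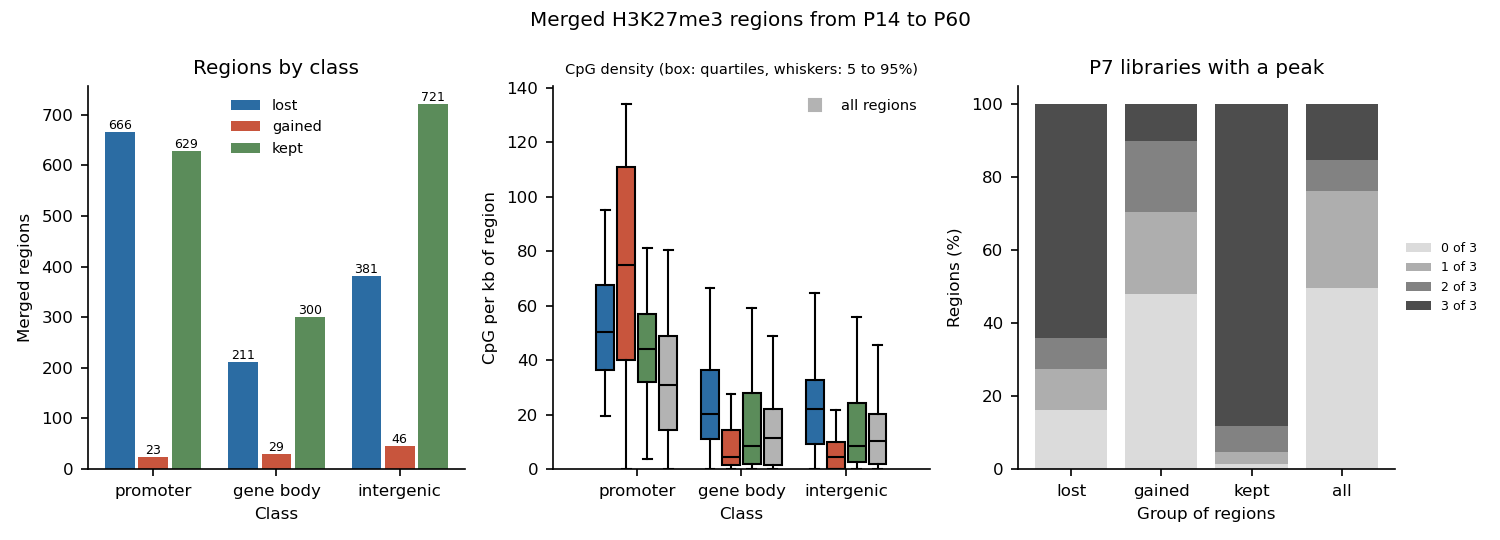
Left, number of lost, gained and kept merged regions by class; middle, CpG per kb of the regions by class for lost, gained, kept and all regions (box: quartiles, whiskers: 5th to 95th percentile); right, percent of regions with a peak in 0 to 3 of the P7 libraries. Lost regions are mostly promoters with P7 peaks and the 46 intergenic gained regions are CpG-poor. No P7 peak was found in 48.0% of gained regions, near the 49.7% of all regions.

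The lost regions come from the same peaks as the promoter coverage, so their counts by gene list are another view of it and no separate support. Of all 8609 promoter regions 666 were lost and 629 kept. Lost promoter regions were nearest to Hox genes 31 times, to other homeobox genes 71 times, to factors of other organs 41 times and to forkhead genes 14 times, and kept ones 0, 8, 5 and 3 times. Signals of the Wnt, FGF, BMP and Hedgehog families had 7 lost and 17 kept, and potassium channels 5 lost and 10 kept. In all, 677 genes had at least 1 lost promoter region, with 4 at Hoxb3 and 3 at Hoxd3, Speg, Tbx4 and Tfap2c. The longest was at Adamts9, an extracellular protease gene, at chr6:92940443-92945760, with 838, 3204 and 3916 bp under peaks at P14. Further ones were at Trim71, a regulator of stem cells (chr9:114560137-114564970), and Msx3, a dorsal neural tube homeobox gene (chr7:140046565-140051129).

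Long regions were also lost away from promoters. In gene bodies the nearest TSS was that of Nr2e1, Prdm16, Shh, Osr1 or Mecom in the 5 longest. The region near Shh, the ligand that drives GNP division, lies 6622 bp from its TSS at chr5:28457818-28460634 and had 337, 1977 and 2283 bp under peaks at P14. In the 5 longest between genes the nearest TSS was that of Sox21, Gpatch2l, Sox1, Hoxa13 or Nr4a2. A region 12165 bp from the Hoxa13 TSS (chr6:52273045-52277055) had 1045, 1151 and 772 bp at P14, and 1 near Nr4a2, 7557 bp from its TSS (chr2:57101561-57105515), had 1062, 1434 and 1576 bp.

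Of the 23 gained promoter regions 12 were nearest to replication-dependent histone genes, as were 13 of all 98 gained regions. On chromosome 13 lay 18 of the 98, against 1650 of all 39220 regions. The longest gained promoter region was at Dll4, a Notch ligand of endothelium (chr2:119324411-119326808). It had 51, 57 and 817 bp under peaks at P60, none at P14 and 2398, 1377 and 1352 bp at P7, so it was listed at P7 and P60 and not at P14, and only in small part in P60 replicates 1 and 2. The Gnb4 region (chr3:32615846-32617298) had 200, 454 and 1453 bp at P60 and none before. The Fzd2 region (chr11:102605443-102606455) had 460, 286 and 922 bp at P60, none at P14 and 895 bp in P7 replicate 1. In all 3 regions P60 replicate 3 carried the most.

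Some of the longest gained and kept regions consist of repeated sequence. The gained region on chromosome 7 whose centre is printed above (chr7:68586987-68587811) lies 161377 bp from the nearest TSS and had 816, 754 and 438 bp under peaks at P60. Repeat masking covers none of it, yet 1 run of 15 bases, accatgaagatacag, occurs 37 times in its 825 bp, so it is a tandem repeat. A kept region at chr9:3000006-3005215, which touches the promoter window of Gm10722, is 96.2% repeat-masked and had 3498 to 4573 bp under peaks in all 6 lists, with each P60 list above each P14 list, and 1 at chr17:39843038-39848801, which holds a copy of the ribosomal RNA gene, had 5724 to 5762 bp. Other long kept regions held little repeat-masked sequence, such as those nearest to Wnk4 (9.82%) and Ostm1 (15.7%). Reads from repeated sequence can come from many copies, and the rule by which they were placed is not stated.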

How the data were processed

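H3K27me3 was measured by ChIP-seq of mouse cerebellum. Per the labels and the study's methods, fixed chromatin was sonicated, immunoprecipitated and sequenced as single ends. The authors trimmed reads with Trimmomatic 0.38, aligned them to mm10 with STAR 2.7.2b and called broad peaks per library with MACS2 2.1 at a stated false discovery rate of 0.01. No input is named. Each deposited list gives peak positions with a fold enrichment (a ratio to the background of the same library), −log10 p, −log10 q and a score, which is 10 times −log10 q. These values were made by the authors within each library, and only −log10 q was used here, to set thresholds and to rank peaks within a list. The lowest −log10 q was 1.00 to 1.01, weaker than the stated rate. The authors' DESeq2 1.36.0 comparison needs reads and was not repeated. The lists of the 5 knockout-experiment libraries were not used, because their positions hardly overlap those of the other libraries.

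Peak coverage was computed over the 93513 TSS that GENCODE vM21 (GRCm38) gives for 21938 protein-coding genes. A gene was marked when 1 bp or more of its window was covered. Coverage, raw and relative, was compared in limma 3.58.1 (R 4.3.3, trend and robust variance, 9 libraries, stage as the only term, adjusted p under 0.05), after a test on simulated data. For values per library the test was an exact permutation, two-sided. Peaks that overlapped or touched were merged into regions, which were classed as promoter if they touched a window, else as gene body or intergenic, and have no test. RefSeq promoters were matched by symbol for 3730 of the 5120 genes tested, with a median of 13.0 CpG. Of the 106 genes lower on the raw scale 81 matched (19.0 CpG), of the 432 and 94 lower and higher on the relative scale 314 and 50 (17.0 and 11.5 CpG), and the median of all 27025 was 6.00. Python 3.11.15, numpy 2.4.6, pandas 2.3.3, scipy 1.17.1 and matplotlib 3.10.9 were used.

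The comparison, its members and the 33 gene lists were chosen with earlier results of these data known. Genes were named by rule: the 12 largest called changes per scale and direction whose stages do not overlap, up to 4 per list and direction, and the genes the study drew or primed. Of those named otherwise, for their peaks in all lists, in the P60 lists only or near a region, the choice was made after their values were seen. That holds for Gli1, Pitx3, Bmp8a, Nog, Kcnn1, Hoxb3, Hoxc8, Hoxc13, Gnb4, Fzd2, Uaca and the single histone genes not among the largest changes. Alternatives were other windows, filters, scales, thresholds and divisors, lists cut to equal length or number, autosomes, a replicate block and leaving out each library. Some genes that the rule names are not reported here.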

Additional observations from a re-analysis of the deposited data

How the results depend on the processing

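Raw promoter coverage, with 106 genes lower and 0 higher, moved by over 1.5 times under most alternatives. Lower genes numbered 12 with genes marked in 1 or more libraries, 398 with 4 or more, 953 on a log2 scale, 500 with 1 kb windows, 204 with the most 5-prime TSS, 339 at −log10 q of 2, 277 with peaks of 300 bp or more, 45 with equal numbers of peaks, and 0 at −log10 q of 4 or with 6 libraries. Higher genes numbered 2 with 4 or more libraries, 31 on the log2 scale, 7 with 1 kb windows, 3 at −log10 q of 2 and 31 with equal covered length. Leaving out 1 library gave 0 to 1099 lower and 0 to 4 higher.

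Relative coverage, with 432 lower and 94 higher, gave 250 and 47 with genes marked in 1 or more libraries, 679 and 155 on the log2 scale, 89 and 22 with equal covered length, 256 and 19 with equal numbers, and 0 and 0 at −log10 q of 4 or with 6 libraries. Higher genes alone moved to 157 with 4 or more libraries, 23 at −log10 q of 2, 11 with peaks of 300 bp or more, 50 with covered length as the divisor and 49 with the kept genes as the divisor. Leaving out 1 library gave 180 to 653 lower and 25 to 371 higher. The relative difference turned negative for Cnn2 (-13.46) and Kdf1 (-55.91) at −log10 q of 4, Gm13283 (-0.67) with peaks of 300 bp or more, Gm13290 (-0.12) with 1 kb windows and Mycn (-8.07) at −log10 q of 2. The cause was not tested.

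Lost and gained regions (1258 and 98) became 510 and 25 when peaks had to cover 50%, 185 and 42 at −log10 q of 4, 149 and 230 with equal covered length, and 637 lost with equal numbers. Gained regions became 57 at −log10 q of 2 and 8 with peaks of 300 bp or more. Without 1 library 1367 to 2805 were lost and 137 to 817 gained.

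With the replicate number as a block 0 genes passed on either scale (1060 raw and 1295 relative at an unadjusted p under 0.05, smallest adjusted p 0.122 and 0.0522). The numbers pair no samples by their labels, and same-numbered libraries deviated together in 2 of 3 pairs only (correlations 0.25, -0.10 and 0.20 on the raw scale). Differences of library values kept their direction under all alternatives run. Depth is unknown, so a promoter listed at 0 has no limit of detection.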
